A study of Mus musculus with 12 samples.

Results

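The 31 genes described here encode SR proteins and heterogeneous nuclear ribonucleoproteins (hnRNPs), the main families of RNA-binding proteins that control which exons of a pre-mRNA are kept. They are the rows of the deposited table of normalized counts whose gene symbol begins with Srsf and a number, or with Hnrnp, and whose mean over the 12 library columns was at least 20. This gave 31 genes, 11 named Srsf and 20 named Hnrnp, of 29486 genes listed. Of 32 rows with such a name, the one left out was the pseudogene Hnrnpa1l2-ps, with a column mean of 12.2. The members nearest to the limit were Srsf12, with a column mean of 46.9, and Hnrnpll, with a column mean of 71.0. The members were thus chosen by their mean value over these libraries, and their levels are a description only.

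Total mRNA was sequenced from splenic B cells of C57BL/6Babr mice in 3 conditions, with 4 libraries each from biological replicates. All cells were activated with the mitogen LPS (10 µg/ml). The first condition, LPS, received nothing else and was activated for 48 h. The second, LE, was activated for 48 h and then received etoposide (20 µM, 4 h), a topoisomerase II inhibitor that leaves DNA double-strand breaks. The third, LEKU, was activated for 47 h, received KU55933 (10 µM), an inhibitor of the DNA damage kinase ATM, and 1 h later the same etoposide treatment. The labels do not give a condition with KU55933 and no etoposide, and they do not say whether cells with LPS alone were cultured for the further 4 h. They give the libraries of a condition Illumina indexes that no other condition carries, so that index and condition cannot be told apart.

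Pre-mRNA splicing is carried out by the spliceosome, and SR proteins and hnRNPs decide where it acts. SR proteins join RNA recognition motifs to a tail rich in arginine and serine, bind enhancers in exons and, as a rule, favour inclusion of the exon. hnRNPs coat nascent transcripts and often repress nearby splice sites, and several of them travel to the cytoplasm, where they act on mRNA stability and translation. Many genes of both families limit their own output by splicing in an exon that sends the transcript to nonsense-mediated decay. In B lineage cells these proteins are known for the choice between membrane and secreted immunoglobulin heavy chain and for the exons of Cd45.

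Library totals of the deposited values were between 20400994 and 30575195. Within a condition, the columns were the same values multiplied by a factor for each library, with no gene off by more than 1.4e-14 on the log2 scale. They are therefore fitted means of the condition, and no spread between replicates is left in them. For this reason no test was made, no SD is given, and a difference is described by its size, counted when it reached 1.5-fold. Values below are normalized counts of a condition after division by the size factor of the library, and fold changes are of value + 1. The counting error that remains in the summed counts is a lower limit of the true error. Its standard error was between 0.0058 and 0.0379 on the log2 scale for the 29 members other than Srsf12 and Hnrnpll.

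The cells carried the B cell markers throughout. All 6 of Cd79a, Cd79b, Ms4a1, Cd22, Pax5 and Blnk were at 1122 or more in each condition, whereas the 6 T cell markers reached at most 13.7, and the NK cell markers listed at most 1.07. The summed value of these 6 B cell markers was itself 112347 with LPS, 58742 in LE and 56438 in LEKU. That of the 6 macrophage markers was 417, 468 and 431 in the same order, and that of the 5 red blood cell markers 216, 146 and 107. The macrophage markers did not share a course, with Itgam at 220, 129 and 115 and Cd68 at 105, 211 and 175 in the order LPS, LE, LEKU, and the part of either list in the results was not tested. Cdkn1a, the p53 target that serves as a check of DNA damage, was at 411 with LPS, 13440 in LE and 10781 in LEKU. The part of the shift in B cell markers in the results below was not tested, and in bulk RNA, fewer cells of a type and less RNA per cell cannot be told apart.

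As a family, the splicing factors were lower after etoposide. Their summed value in LE was 71.6% of that with LPS, and in LEKU 67.5%. The 20 hnRNP genes summed to 66.5% of LPS in LE and 64.1% in LEKU, and the 11 SR genes to 86.6% and 77.5%. The SR sum rests in part on Srsf5, without which the other 10 SR genes summed to 74.8% in LE and 72.0% in LEKU. The hnRNP sum rests in part on Hnrnpa2b1, at 42631 with LPS and 23665 in LE, and Hnrnpa3, at 27003 and 12433. It was not computed without them. The share of all counts that fell on the 31 genes was 1.29% with LPS, 1.01% in LE and 0.985% in LEKU. Scaling by library totals or by quantiles gave summed values of 78.3% and 82.9% of LPS in LE.

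The comparison of LE with LPS asked what DNA damage did to these mRNAs in activated B cells. Of 31 members, 25 had a lower value with etoposide, 10 of them by at least 1.5-fold, and 3 were higher by at least 1.5-fold. Among the 15507 genes that passed a filter on low values, 16.2% were lower and 21.9% higher by that size, and 7931 were lower by any amount. The median log2 fold change of the members was -0.42, against -0.015 over all of those genes. Abundant genes as a class also had lower values. Of 5440 genes with a mean value of at least 1000, 3367 were lower by any amount, with a median of -0.14. By at least 1.5-fold, 19.6% of them were lower and 10.3% higher. The 28 members with such a mean value had a median of -0.43, with 10 lower and 1 higher by that size. All 31 members passed the filter, Srsf12 only through the libraries with etoposide. The column mean of Srsf12 also reached the limit of 20 for members only through the LE libraries. With library totals as the scaling the count was 6 lower and 3 higher, where 11.9% of all genes kept and 14.4% of the abundant ones were lower. With quantile normalization it was 5 lower and 2 higher, or 16.1% of the members lower, where 21.3% of all genes kept and 13.9% of the abundant ones were lower. Under that scaling the share of members lower was thus near the background. The members called under every alternative scaling, filter and pseudocount were 6, Srsf12 and the 5 hnRNP genes Hnrnpa2b1, Hnrnpa3, Hnrnpd, Hnrnpl and Hnrnpr. The call of Srsf12 is not independent of the choice of members and is a description only. Leaving out a replicate could not change a call, because the columns of a condition are proportional.

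**Figure D1:**
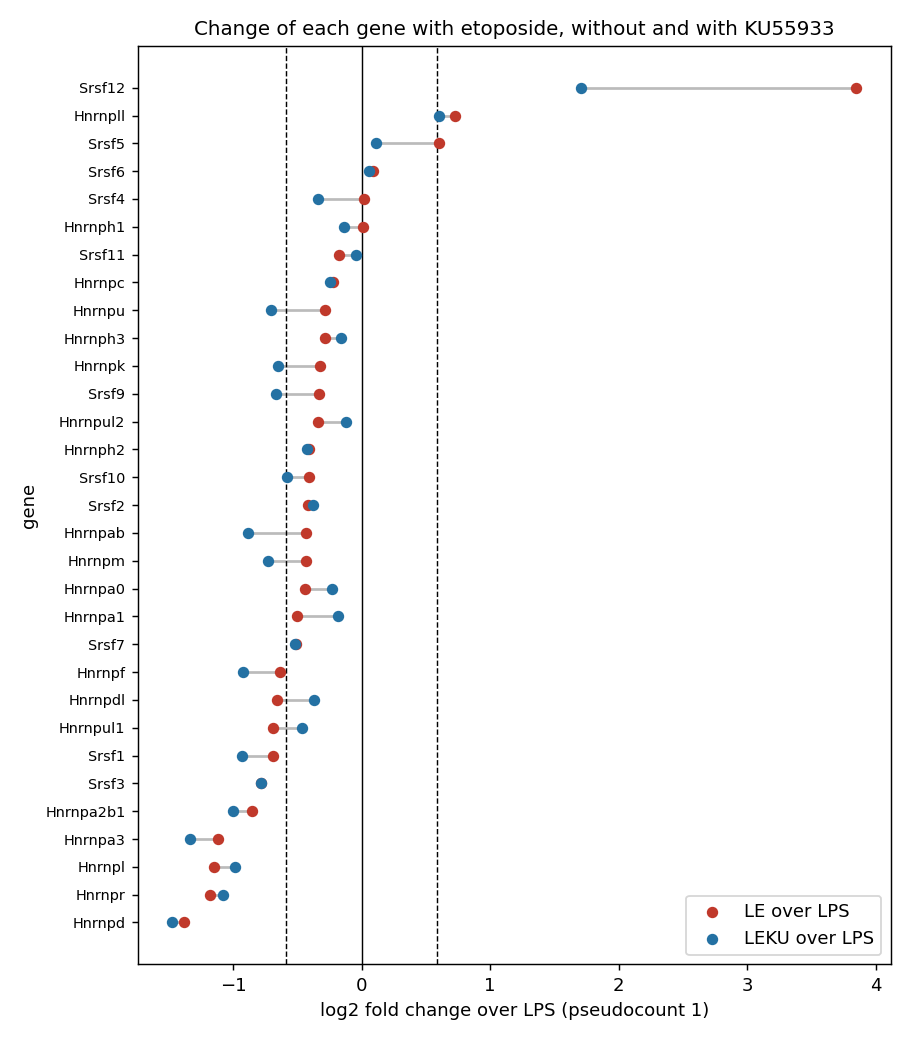
Log2 fold change over LPS of each of the 31 genes (vertical axis) in LE (red) and LEKU (blue), computed from fitted condition values with a pseudocount of 1; dashed lines mark 1.5-fold. Most points lie left of 0, with Hnrnpd furthest at -1.38 in LE and -1.47 in LEKU, while Srsf12 stands far to the right at 3.85 in LE and 1.70 in LEKU.

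In the cumulative distribution of LE against LPS the Hnrnp curve lay to the left of both background curves over most of its length, with 18 of 20 genes below 0 and a median of -0.43. The Srsf genes had 7 of 11 below 0 and a median of -0.33. Below 0 were 7931 of the 15507 genes kept and 3367 of the 5440 abundant ones.

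**Figure D2:**
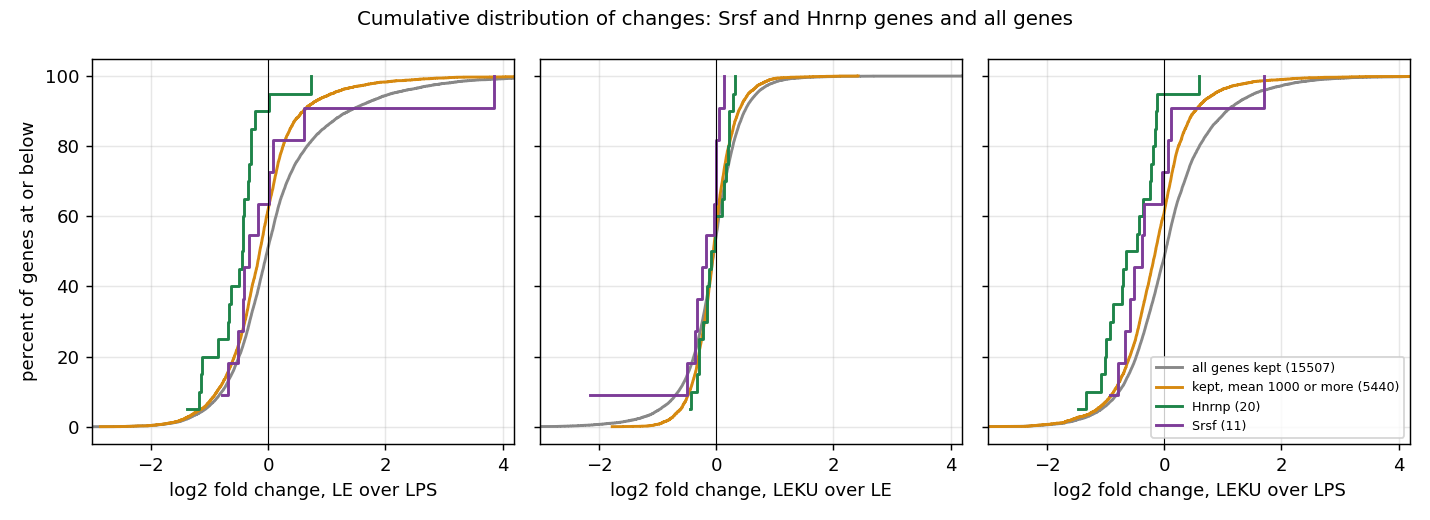
Percent of genes (vertical axis) at or below each log2 fold change (horizontal axis) for LE over LPS, LEKU over LE and LEKU over LPS; lines show all 15507 genes kept (grey), the 5440 of them with a mean value of at least 1000 (orange), the 20 Hnrnp genes (green) and the 11 Srsf genes (purple). The Hnrnp line lies left of the grey line in the first and last panels, and the 4 lines run close together in the middle panel, where the median was -0.090 for the 31 genes and -0.038 for all genes.

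Per length, the most abundant members with LPS were hnRNPs of the A/B class. Hnrnpa1 (chr15:103240432-103246692), which represses exons and shuttles between nucleus and cytoplasm, held 9036 normalized counts per kb of exonic length with LPS, 6389 in LE and 7947 in LEKU. Its relative Hnrnpa2b1 (chr6:51460932-51469894), known also for binding to m6A-marked and exported RNAs, was second with LPS at 6475 per kb, and stood at 3594 in LE and 3230 in LEKU. With etoposide the second place per kb was held by Srsf5, at 4834 in LE and 3440 in LEKU. Hnrnpf (chr6:117900324-117925622), which binds runs of G, stood at 5164, 3317 and 2717 per kb. At the other end, Hnrnpr was at 211, 93.3 and 100 per kb, Hnrnpll at 4.24, 7.06 and 6.46 per kb, and Srsf12 at 1.94, 32.1 and 7.03 per kb. Coordinates are those of the GRCm38 gene models of GENCODE M21, and the exonic length is the union of all annotated exons, so that genes with long alternative ends are placed lower than a single transcript would place them. Of exonic 100-base windows of Hnrnpa1, 25.9% also occur in other genes, chiefly Gm10052. Part of its reads may thus not have been placed on 1 gene, here and in its values below.

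**Figure D3:**
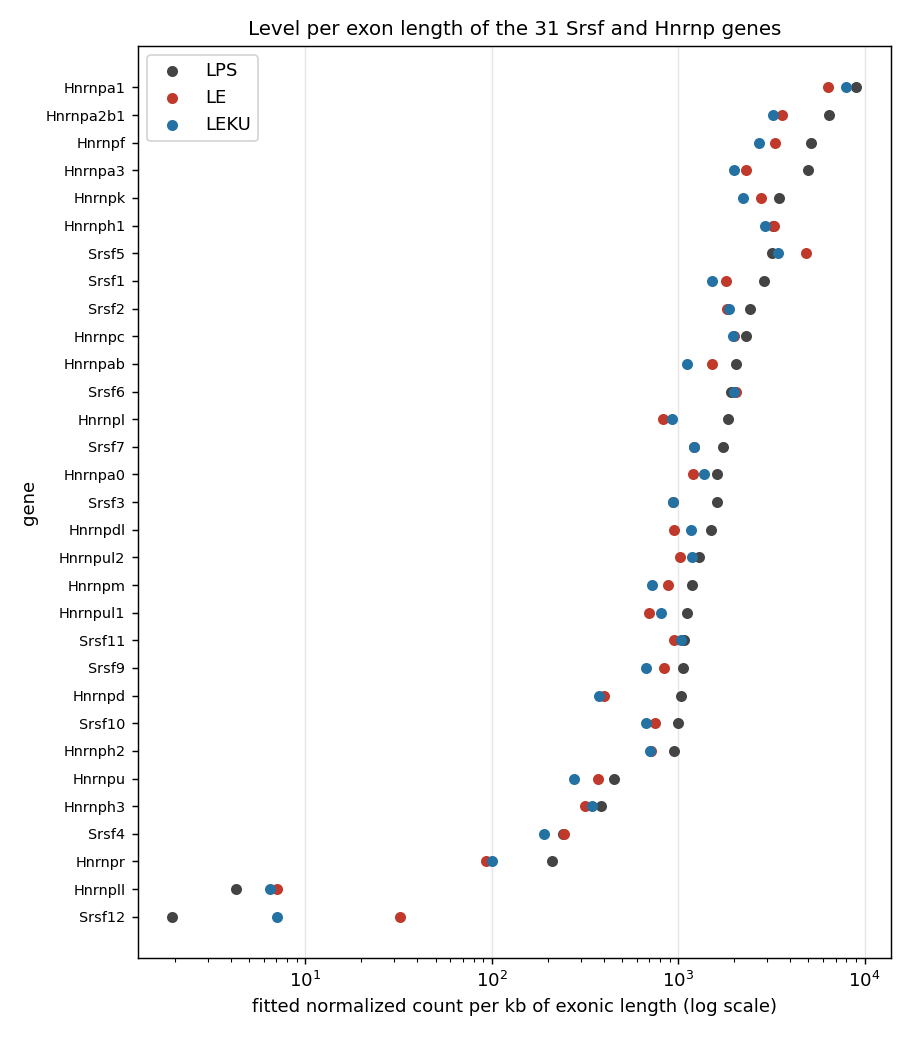
Fitted normalized count per kb of exonic length (horizontal log axis) of each gene (vertical axis) with LPS (grey), LE (red) and LEKU (blue), ordered by the value with LPS. Hnrnpa1 leads at 9036 per kb with LPS; Hnrnpll and Srsf12 stand apart at the bottom, and they are among the few genes whose grey point is the lowest.

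The composition of the pool differed between conditions too. Hnrnpa2b1 went from 9.88% of the summed value per kb with LPS to 7.47% in LE and 7.07% in LEKU. Hnrnpa3 went from 7.63% to 4.79% and 4.34%. Hnrnpa1, in contrast, held 13.8%, 13.3% and 17.4% in the same order. Srsf5 went from 4.85% with LPS to 10.0% in LE, where it was second to Hnrnpa1, and was at 7.53% in LEKU. Hnrnph1 went from 4.93% to 6.77% and 6.42%, although its own value hardly moved.

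**Figure D4:**
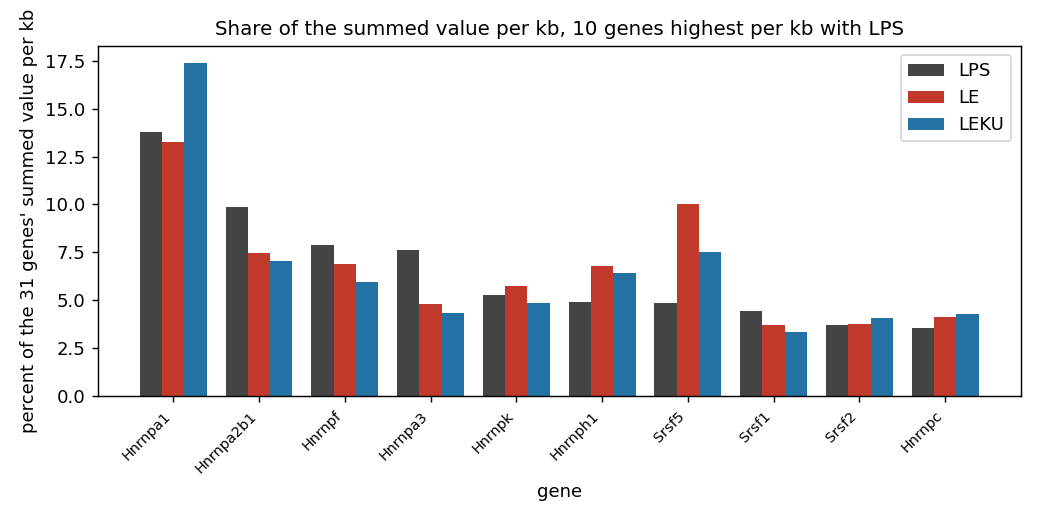
Share of the summed value per kb of the 31 genes (vertical axis, percent) held by the 10 genes that were highest per kb with LPS, in LPS (grey), LE (red) and LEKU (blue). The Srsf5 bar is tallest in LE at 10.0%, and the Hnrnpa1 bar is tallest in LEKU at 17.4%.

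Among the SR proteins with a pair of RNA recognition motifs, Srsf1 and Srsf5 went opposite ways. Srsf1 (chr11:88047373-88053755), the founding SR protein and also an export and translation factor, was at 16575 with LPS, 10259 in LE and 8685 in LEKU, a log2 fold change of -0.69 in LE and -0.93 in LEKU over LPS. Srsf5 (chr12:80945504-80950507), a nuclear SR protein that in other cells responds to growth signals, was at 12679.6 with LPS and 19280 in LE, 1.52-fold higher, and at 13720 in LEKU. Its value in LEKU was therefore within 1.08-fold of that with LPS, with a log2 fold change of -0.49 against LE. The call for Srsf5 in LE lay at the 1.5-fold limit and was lost when the size factors were set on all genes. Srsf6, a close relative of Srsf5, hardly differed, at 9251, 9857 and 9638. Srsf4 was at 855, 866 and 676, and Srsf9 at 1755, 1392 and 1106, which put Srsf9 1.59-fold lower in LEKU than with LPS. Of exonic 100-base windows of Srsf4, 36.3% also occur in another gene, chiefly the transcript Gm12992 on the opposite strand, so its value may hold reads of both if the counting ignored strand, which the sources used here do not state.

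Of the SR proteins with a single RNA recognition motif, Srsf12 had the largest difference of all members. Srsf12 (chr4:33208991-33233340) encodes a little-studied SR protein that is the nearest relative of Srsf10 and, like it, is described as a repressor of splicing. The deposited values were 4.99, 5.53, 5.76 and 5.19 in the LPS libraries, 98.4, 110, 134 and 107 in the LE libraries, and 20.1, 22.6, 24.3 and 24.7 in the LEKU libraries. These 4 values of a condition differ only by library size and do not show how far the replicates agreed. After division by size factors, Srsf12 was at 6.10 with LPS (95% counting interval, exact Poisson, 3.69 to 9.12), 101 in LE (92.0 to 111) and 22.1 in LEKU (17.9 to 27.2). The intervals cover counting error only. Srsf12 met the mean of at least 20 only through the LE libraries, where it is highest. It passed the filter only through the libraries with etoposide. Its difference is therefore a description. With 1 added to each value, Srsf12 was 14.4-fold higher in LE than with LPS. At so low a value with LPS, the fold depends on the number added. The counting standard error was 0.32 on the log2 scale, taken from the summed counts with nothing added. With KU55933 the value was 4.42-fold lower than in LE and still 3.26-fold higher than with LPS. Srsf12 was the only member past 1.5-fold between LEKU and LE.

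Srsf3 (chr17:29032628-29043373), the smallest SR protein, with roles in export and in the processing of transcript ends, was at 12721 with LPS, 7381 in LE and 7390 in LEKU. It was 1.72-fold lower in both conditions with etoposide, with a log2 fold change of 0.0018 between LEKU and LE. Srsf2, Srsf7 and Srsf10 were lower by less than 1.5-fold in each. Srsf2 was at 7206, 5387 and 5544, Srsf7 at 6154, 4326 and 4297, and Srsf10 at 7012, 5267 and 4689.99 in the order LPS, LE, LEKU. Srsf10, a repressor that is dephosphorylated upon heat shock, thus lay 1.49-fold lower in LEKU than with LPS, just inside the limit, at a level far above that of Srsf12. Srsf11, an SR-related protein of the 3′ splice site, was at 9039, 7983 and 8777.

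The hnRNPs with the lowest relative values after etoposide were Hnrnpd, Hnrnpr, Hnrnpl and Hnrnpa3, each of them lower by more than 2-fold in LE. Hnrnpd (chr5:99955935-99978938), also called AUF1, binds AU-rich elements and marks mRNAs for decay. It was at 7655 with LPS, 2936 in LE and 2758 in LEKU, 2.61-fold lower in LE. Its relative Hnrnpdl, the neighbouring gene on chromosome 5 (chr5:100033577-100039664), was at 7273, 4603 and 5637, 1.58-fold lower in LE and 1.29-fold lower in LEKU. Hnrnpr (chr4:136310942-136359447), a close relative of Syncrip, was at 4687, 2071 and 2224, 2.26-fold lower in LE. Hnrnpl (chr7:28808541-28822266), which binds CA repeats, was at 11002, 4955 and 5549, 2.22-fold lower in LE. Hnrnpa3 (chr2:75659261-75669407) was at 27003, 12433 and 10703, 2.17-fold lower in LE and 2.52-fold lower in LEKU. Of its exonic 100-base windows, 25.6% also occur in other genes, mostly the pseudogene Gm5641, so that part of its reads could not be placed on one gene. All 4 genes stayed past 1.5-fold in LE under each of the 12 alternative scalings, filters, pseudocounts and left-out replicates.

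To show the sequence next to the start of the genes that differed, the 200 bases before the RefSeq start (GRCm38.p6) are given 5′ to 3′ for Srsf5, which was higher in LE at a high level, and for Hnrnpd, Hnrnpr and Hnrnpa3. Capitals mark matches, on either strand, to the GC box (GGGCGG) and the CCAAT box (CCAAT); none of these 4 windows held the TATA box searched (TATAAA). The windows are chr12:80945299-80945498 on the plus strand for Srsf5, chr5:99978939-99979138 on the minus strand for Hnrnpd, chr4:136310742-136310941 on the plus strand for Hnrnpr, the first of 2 starts, and chr2:75659059-75659258 on the plus strand for Hnrnpa3.
Srsf5: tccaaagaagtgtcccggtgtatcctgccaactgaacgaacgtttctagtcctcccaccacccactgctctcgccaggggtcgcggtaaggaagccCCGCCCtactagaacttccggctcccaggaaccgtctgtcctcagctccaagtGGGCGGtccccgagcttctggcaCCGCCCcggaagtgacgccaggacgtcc
Hnrnpd: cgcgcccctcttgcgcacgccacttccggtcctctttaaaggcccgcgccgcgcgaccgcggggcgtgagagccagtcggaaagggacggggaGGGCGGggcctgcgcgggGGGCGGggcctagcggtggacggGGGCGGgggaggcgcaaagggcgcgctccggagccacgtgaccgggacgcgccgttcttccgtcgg
Hnrnpr: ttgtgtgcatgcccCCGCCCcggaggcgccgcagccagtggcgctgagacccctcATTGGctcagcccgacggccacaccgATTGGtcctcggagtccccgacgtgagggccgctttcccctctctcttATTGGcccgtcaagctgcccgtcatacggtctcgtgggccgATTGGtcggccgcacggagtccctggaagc
Hnrnpa3: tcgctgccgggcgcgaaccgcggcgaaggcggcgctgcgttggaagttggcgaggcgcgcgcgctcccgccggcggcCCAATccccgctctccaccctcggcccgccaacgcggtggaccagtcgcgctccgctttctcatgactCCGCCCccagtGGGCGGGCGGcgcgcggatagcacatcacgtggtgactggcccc

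The 4 windows are rich in GC, between 63% and 77%, and each holds at least 1 GC box. Hnrnpr carries 4 CCAAT boxes within its window, Hnrnpa3 carries 1, and Srsf5 and Hnrnpd carry none. Of the 31 members, 29 matched a RefSeq promoter, with 41 windows in all and a median GC content of 67.5%, against 53% over 32851 windows of all genes. A GC box was found in 23 of the 29 genes (79.3%), against 33.7% of 27025 genes. A CCAAT box was found in 16 (55.2%, against 32.7%) and a TATA box in 2, Srsf2 and Srsf3 (6.90%, against 11.7%). No member held a p53 half-site in its window, against 6.44% of genes. Matches overlapping each other were counted each. A match is a string of letters and was not tested for function, and GC-rich windows hold more GC boxes by composition. The background holds genes of any level, whereas most members are abundant, and abundant genes were not set beside them here. The window of Srsf12 is not shown, because GENCODE places the start of this gene before it.

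The remaining A/B class members were lower by a smaller amount. Hnrnpa2b1 was at 42631 with LPS, 23665 in LE and 21269 in LEKU, 1.80-fold and 2.00-fold lower than with LPS. Hnrnpa1 was at 28490, 20144 and 25056, a log2 fold change of -0.50 in LE and -0.19 in LEKU. Its value in LEKU was the one furthest above LE among the members, by 0.31 on the log2 scale. Hnrnpab was at 5683, 4213 and 3087, and was the hnRNP with the largest deficit in LEKU against LE (-0.45). Of its exonic windows 18.4% also occur in Phykpl on the opposite strand. Hnrnpa0, a gene with a single exon, was at 4339, 3204 and 3699.

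In the F/H class, which binds runs of G, the members separated. Hnrnpf was at 15734, 10106 and 8278, 1.56-fold lower in LE and 1.90-fold lower in LEKU. Its call in LE was lost under 4 of the alternatives, and 49.4% of its exonic windows also occur in 10 other genes, most often in Gm6430. On the opposite strand, 4933440N22Rik and Gm43863 overlap its exons by 410 and 396 bases. Hnrnph1 (chr11:50376990-50386528) was nearly level, at 18864, 19022 and 17145. Hnrnph2 was at 4152, 3128 and 3092, and Hnrnph3 at 1217, 996 and 1088.

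Hnrnpll (chr17:80029487-80062334), the paralogue of Hnrnpl, is known in lymphocytes for exclusion of Cd45 exons and, in plasma cells, for the switch to secreted immunoglobulin. It was one of 3 members above LPS by at least 1.5-fold in LE, at 49.5 with LPS (95% counting interval 42.4 to 57.4), 82.4 in LE (74.2 to 91.4) and 75.4 in LEKU (67.2 to 84.1). The intervals of LE and LEKU overlapped, and neither overlapped that of LPS. They cover counting error only and hold no spread between replicates, so their overlap is not a test. Hnrnpl itself went the opposite way, and the ratio of Hnrnpl to Hnrnpll per kb of exonic length was 436 with LPS, 118 in LE and 144 in LEKU. The call for Hnrnpll was lost with quantile normalization, in LEKU also with a pseudocount of 5 and without the filter. Hnrnpll is listed 138 kb from Srsf7, which was lower.

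Among the other hnRNPs, Hnrnpk, which binds C-rich RNA through KH domains, was at 22482, 17939 and 14348. It was lower than with LPS by 0.33 on the log2 scale in LE and by 0.65 in LEKU, a 1.57-fold difference. Hnrnpu, a scaffold protein of chromatin, had the same course, at 5271, 4330 and 3225. Hnrnpm was at 9484, 7030 and 5731, and Hnrnpc, which binds U tracts, at 10053, 8634 and 8479. The U-like genes had another course: Hnrnpul1 was at 9695, 6026 and 7025, and Hnrnpul2 at 9196, 7262 and 8444. Both have been tied to the response to DNA double-strand breaks, through recruitment of proteins to broken ends.

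The comparison of LEKU with LE asked what inhibition of ATM changed in cells that all received etoposide. No member was higher by at least 1.5-fold, against 7.16% of all genes kept, and 1 was lower, Srsf12, against 11.6%. Srsf12 was a member only through the LE libraries, so its call is a description. The median log2 fold change of the members was -0.090, against -0.038 over all genes. Outside Srsf12 the differences spanned -0.49 (Srsf5) to 0.31 (Hnrnpa1), with 20 of the 31 members below 0 and 11 above. Below 0 were also 8422 of the 15507 genes kept and 3086 of the 5440 abundant ones. The sign of 5 small differences depended on the scaling or filter, those of Hnrnpc, Hnrnph2, Srsf3, Srsf6 and Srsf7.

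Between LEKU and LPS, 13 members were lower by at least 1.5-fold, against 15.5% of all genes kept, and 2 were higher, Srsf12 and Hnrnpll, against 20.5%. The median was -0.46, against 0.023 over all genes. Of the 5440 abundant genes, 20.1% were lower and 8.79% higher. With library totals 9 members were lower, where 10.3% of all genes kept and 13.0% of the abundant ones were. With quantile normalization 8 were lower and 1 higher, with a median of -0.19, where 17.0% of all genes kept and 12.4% of the abundant ones were lower. The 9 members called under every alternative scaling, filter and pseudocount were Hnrnpa2b1, Hnrnpa3, Hnrnpab, Hnrnpd, Hnrnpf, Hnrnpl, Hnrnpr, Srsf1 and Srsf12. For Srsf12, which passed the filter only through the libraries with etoposide, the call is a description. Of the 10 members lower in LE, 8 were also lower in LEKU: Hnrnpa2b1, Hnrnpa3, Hnrnpd, Hnrnpf, Hnrnpl, Hnrnpr, Srsf1 and Srsf3. Of the 2517 genes kept that were lower in LE, 1591 were also lower in LEKU, as were 742 of 1064 abundant ones. Hnrnpdl and Hnrnpul1 were lower in LE only, at 1.29-fold and 1.38-fold lower in LEKU. Hnrnpab, Hnrnpk, Hnrnpm, Hnrnpu and Srsf9 passed the limit in LEKU only, and stood at 1.84-, 1.57-, 1.65-, 1.63- and 1.59-fold lower there. Of these 5, only Hnrnpab kept its call under each of these alternatives. The calls for Hnrnpk, Hnrnpm, Hnrnpu and Srsf9 were lost with library totals and with quantile normalization, that for Hnrnpk also with TMM factors, and those for Hnrnpk and Srsf9 with upper quartile scaling. Of all genes kept, 5.28% were lower than LPS in LEKU and not in LE, and 5.97% in LE and not in LEKU. LE and LEKU were set against the same LPS libraries, so these lists are not independent, and passing in one and not in the other was not tested. Without the 8 members that share over 10% of their exonic windows with another gene, 8 were lower by that size.

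By order of the 3 values, 14 genes descended from LPS over LE to LEKU and 11 had LE lowest, with LEKU between. Srsf12, Hnrnpll, Srsf5 and Srsf6 were lowest with LPS and highest in LE, and Hnrnph1 and Srsf4 were highest in LE and lowest in LEKU. The first of these orders held 45.2% of the members and 21.2% of all genes kept (29.9% of the abundant ones), the second 35.5% and 19.2% (22.6%), the third 12.9% and 25.1% (18.2%), and the last 6.45% and 8.02% (8.71%). In 13 genes (41.9%) no comparison reached 1.5-fold, against 49.8% of all genes kept and 59.6% of the abundant ones. An order counts differences of any size.

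The genes share features that were not used to choose them. They lie on 16 chromosomes and are short, with a median span of 10.7 kb, against 23.3 kb for 12556 protein-coding genes kept. An annotated transcript subject to nonsense-mediated decay was present for 19 of 31 (61.3%), against 28.9% of those genes. It was present for 9 of 11 Srsf genes and 10 of 20 Hnrnp genes. A transcript with a retained intron was annotated for 22 (71.0%, against 58.6%). For these features the members were not set beside abundant genes, so a trait of abundant genes cannot be told apart from one of the family. Hnrnpk has 34 annotated transcripts and Srsf11 has 19, 11 of which retain an intron. Counts per gene add such transcripts together, so these values do not separate them. Across the 31 members, the log2 fold change in LE over LPS had a Spearman rho of -0.011 with genomic span and -0.22 with mean value, as a description over genes that share the same libraries.

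Genes that act with these factors were described by 6 lists, whose counts stand beside the 16.2% lower and 21.9% higher of all genes kept in LE against LPS (19.6% and 10.3% of the abundant ones), and the 15.5% lower and 20.5% higher in LEKU against LPS (20.1% and 8.79%). Of 10 kinases and import factors of SR proteins, none was higher and 1 was lower by at least 1.5-fold in LE against LPS. This was Srpk3, an SR protein kinase best known from muscle, at 770 with LPS, 124 in LE and 135 in LEKU. Clk1, a kinase that releases SR proteins from nuclear speckles, was at 6488, 9534 and 10776, past the limit in LEKU over LPS (log2 fold change 0.73). Dyrk1a was lower in that comparison (-0.88). The median of the list in LE against LPS was -0.33. For this and the lists below, the median over all genes kept was -0.015, and over the abundant ones -0.14.

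Of 12 hnRNP proteins with other names, 5 (41.7%) were lower and none higher in LE against LPS, with a median of -0.30. Syncrip, the relative of Hnrnpr, was at 8109, 3621 and 3194, a log2 fold change of -1.16 in LE and -1.34 in LEKU over LPS. Tardbp, which represses cryptic exons, was at 14802, 7977 and 6224, and Rbmx at 2027, 1208 and 1047. Of 14 other splicing regulators that passed the filter, 6 (42.9%) were lower and none higher, with a median of -0.51. The lowest was Celf2, at 6956, 1957 and 1893 (log2 fold change -1.83 in LE), followed by the muscleblind genes Mbnl1, at 12147.5, 5741 and 4194, and Mbnl2, at 2609, 1398 and 1284.

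Of 19 SR-related proteins, 4 were lower and none higher, with a median of -0.15. Both this median and the 21.1% lower are near those of abundant genes. Rsrc1 was at 754, 366 and 355, and the U1-associated Luc7l2 and Luc7l3 had log2 fold changes of -0.78 and -0.70. Of 28 genes of the spliceosome core, 1 was lower, the U1 gene Snrpa at 1824, 1078 and 1223, with a median of -0.30. In LEKU against LPS, 6 of the 28 (21.4%) were lower, also near the share of abundant genes, with the Sm ring genes Snrpd1 (-0.96) and Snrpd3 (-0.85) and the helicase gene Ddx46 (-0.81) furthest. Snrpd3 was also the only gene of the 6 lists lower by at least 1.5-fold in LEKU than in LE, with a log2 fold change of -0.74. Of 10 genes of nonsense-mediated decay, 2 (20%) were higher and 1 (10%) was lower in LE against LPS. Of all genes kept, 21.9% were higher and 16.2% lower. The median of this list was -0.16, near the -0.14 of the abundant genes. Upf3b was at 1630, 3082 and 2147, Upf3a at 709.6, 1093 and 1076, and the endonuclease gene Smg6 at 1577, 900 and 912. Smg9 was the only gene of the lists higher by at least 1.5-fold in LEKU than in LE, at 1149 against 746.

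**Figure D5:**
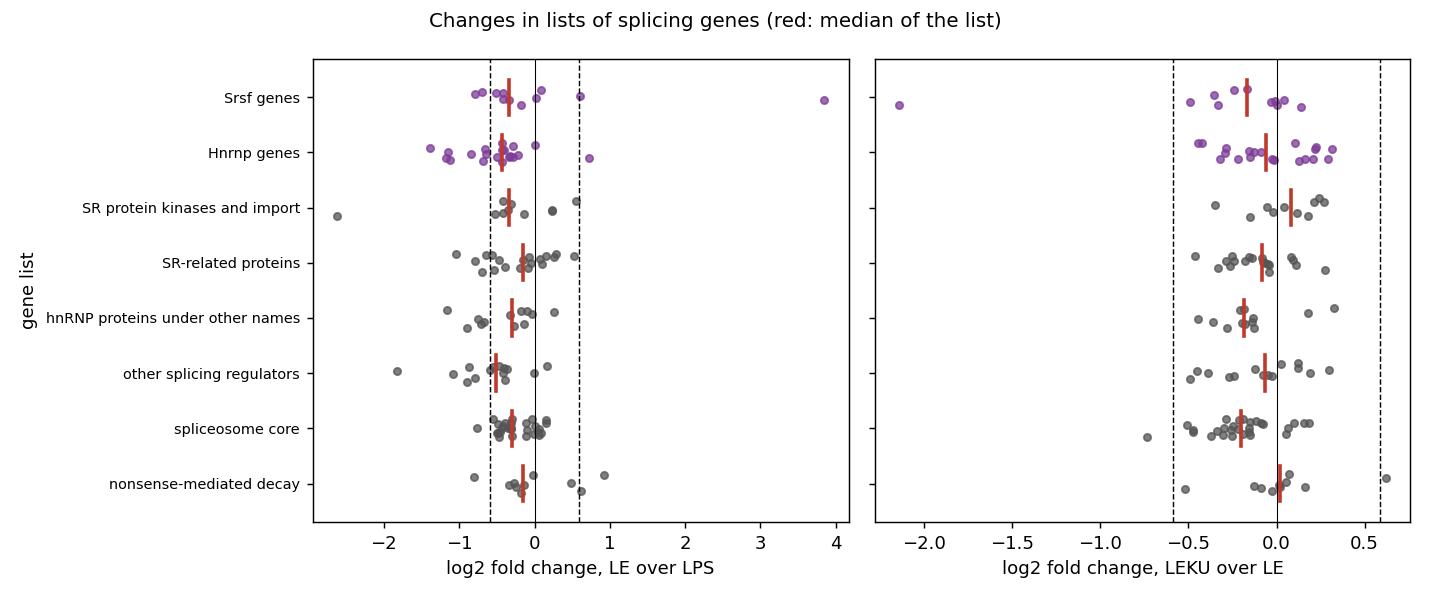
Log2 fold change (horizontal axes) of single genes in LE over LPS (left) and LEKU over LE (right) for the Srsf and Hnrnp genes (purple) and 6 lists of other splicing genes (grey); points are spread vertically for legibility, red bars are medians and dashed lines mark 1.5-fold. In the left panel the median bars of all 8 rows lie below 0, from -0.51 for the other splicing regulators to -0.15 for the SR-related proteins. The median of the 5440 abundant genes, not drawn here, was -0.14 in that comparison. In the right panel Srsf12 stands alone at -2.14.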

How the data were processed

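Total mRNA was measured by polyA mRNAseq in 12 libraries of LPS-activated splenic B cells, 4 for each of 3 conditions. The labels call the libraries biological replicates of a condition, and groups were taken from the sample titles. Per the labels and the methods of the study, the authors trimmed reads with Trim Galore and cutadapt 1.2.1, mapped them with TopHat2 2.0.12 to GRCm38, counted them with HTSeq on Ensembl release 78 genes and fitted DESeq2 1.6.3. The deposited normalized counts are a signal without whole reads, and equal the fitted mean of a condition multiplied by the size factor of the library. Further files deposited by the authors list, per gene and pair of conditions, their own log2 fold changes, errors and p-values, and were not used. Raw counts were not analysed here. A test with limma on the deposited values was planned only if the columns of a condition differed by more than a library factor. They did not, so it was not run. No column of another sample was found.

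Genes with a deposited value of at least 10 in 4 libraries were kept (15507 of 29486). Columns were divided by median-of-ratios size factors set on the genes kept (0.818 to 1.32), and log2 fold changes were taken of value + 1. A difference was counted at 1.5-fold (0.58 on the log2 scale). Depth was between 20400994 and 30575195 per library. Counting intervals treat the summed fitted values of a condition as a Poisson count at the 95% level and cover counting error only. Gene spans, exonic lengths, transcript types and shared 100-base windows came from GENCODE M21 (GRCm38), and promoters from RefSeq (GRCm38.p6). The HTSeq strand setting is not given in the sources used here. Every member may be named. Members past 1.5-fold and the 3 highest and lowest by level were given values in every condition, and of the other lists at most the 3 genes furthest past 1.5-fold each way. The members and the gene lists, written from general knowledge, were chosen with earlier results of these data known. The alternatives were TMM factors, library totals, upper quartile and quantile normalization, a pseudocount of 0.5 or 5, a minimum value of 50 or none, limits of 0.32 and 1 on the log2 scale, a mean of at least 100 and each replicate left out. Leaving out members that share over 10% of their windows, and leaving Srsf5 out of the SR sum, were added after seeing the data. Abundant genes are those kept with a mean value of at least 1000. A planned B cell marker is not reported here. The functions were tested on simulated data. Python 3.11.15 was used, with pandas 2.3.3, numpy 2.4.6 and scipy 1.17.1 for the values and matplotlib 3.10.9 for the plots.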

Additional observations from a re-analysis of the deposited data

How the results depend on the processing

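No paired analysis was possible because the columns of a condition are fitted means with no spread between replicates, so the replicate block was not run. For the same reason leaving out each replicate changed no count and cannot show how stable a value is. Library totals moved the median of all genes from -0.015 to 0.11 in LE against LPS and from 0.023 to 0.20 in LEKU against LPS. With them the members lower in LE numbered 6, the medians of the members were -0.29 in both comparisons with LPS, and the summed value was 78.3% of LPS in LE and 76.1% in LEKU. Relative to all genes the median of the members was -0.41 in LE with the main scaling and -0.40 with library totals. Quantile normalization gave 7 members past the limit in LE, 5 of them lower (median -0.24), and 9 in LEKU against LPS, 8 lower and 1 higher (median -0.19), with sums of 82.9% and 81.1% of LPS. Relative to all genes the medians were then -0.15 and -0.17. With a pseudocount of 5, or with no filter, 1 member was higher in LEKU than with LPS. At 2-fold, 5 members passed in LE (1 higher, 4 lower) and 5 in LEKU against LPS (1 higher, 4 lower), and of the 6 other lists 5, 0 and 9 genes passed in LE against LPS, LEKU against LE and LEKU against LPS. At a lower limit of 0.32 on the log2 scale, 24 members passed in LE, 21 of them lower, 7 in LEKU against LE, all lower, and 20 were lower in LEKU against LPS, with 49, 17 and 56 genes of the lists. The share of all genes kept past either of these limits was not computed. These counts therefore show only how far the limit moves them, and are no result about the members. Without the 8 members that share exonic windows, 8 were lower in LEKU than with LPS. The other 205 summary values stayed within 1.5 times of a count or 0.1 on the log2 scale. They include the values with a replicate left out and the sums with another pseudocount, which could not change. No member past 1.5-fold changed direction under any setting. The low counts of Srsf12 and Hnrnpll limit their folds most.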
